A study of Mus musculus with 12 samples.

Results

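The genes described here are the protein-coding genes of mouse chromosome 4 that gave a measurable signal in 4T1 mammary tumours, followed in order from one end of the chromosome to the other. They were chosen by a rule on level alone: a gene had to be protein-coding, to have chromosome 4 as the first chromosome listed for it, and to reach a mean of at least 5 CPM (the count scaled to a fixed library total) over the 12 tumours. Of the 2941 genes of chromosome 4 in the deposited table of 57186 genes, 1302 were protein-coding and 687 of those met the rule. The other 615 protein-coding genes lay below it. The genes nearest the limit were Rmdn1 at 4.88 CPM and Dnajc6 at 4.94 CPM on the outside, and Pik3r3 at 5.04 CPM and Gpr157 at 5.27 CPM on the inside. All 687 genes were also tested in the fit across the whole table. The chromosome was proposed with differences between the same tumours in view, so its counts and medians are given as descriptions, without a test of the chromosome.

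The mice bore tumours of 4T1, a line of mouse mammary carcinoma cells, and polyadenylated RNA of whole tumour tissue was sequenced. In 6 tumours, called WT, the cells were the parental 4T1 line. In the other 6, called Tn, the Cosmc gene (C1galt1c1) of the same line had been silenced with CRISPR/Cas9. No drug or other agent is named for either group, and all 12 tumours carry the same batch label. Whether the silenced cells were 1 clone or a pool, and the strain, age and sex of the mice, are not given in the sources used here.

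Cosmc is a chaperone that the core 1 galactosyltransferase needs, and cells without it leave O-linked glycans at the single sugar called the Tn antigen. Cultured tumour lines often carry whole or partial chromosomes in an unusual number of copies, and a gained or lost stretch tends to shift the RNA of many neighbouring genes by a similar small factor. RNA alone does not measure copy number, and none was measured here. Mouse chromosome 4 holds genes of many unrelated roles, among them the C1q chains of complement, the tyrosine kinase Lck, the matrix protein tenascin C and the Cdkn2a tumour suppressor locus.

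Promoters of 5 genes whose levels recur below are printed first, because the C1q chains, Isg15 and Tnc stood for opposite directions of change on the same chromosome. Each is the stretch from 250 bases before to 50 bases after the start of the canonical GENCODE M39 transcript, read 5′ to 3′ from the minus strand of GRCm39. The authors counted over an earlier annotation, in which the starts can differ. Capitals mark every match to GAAANNGAA, part of the interferon-stimulated response element, searched on both strands.
C1qa, chr4:136626112-136626411: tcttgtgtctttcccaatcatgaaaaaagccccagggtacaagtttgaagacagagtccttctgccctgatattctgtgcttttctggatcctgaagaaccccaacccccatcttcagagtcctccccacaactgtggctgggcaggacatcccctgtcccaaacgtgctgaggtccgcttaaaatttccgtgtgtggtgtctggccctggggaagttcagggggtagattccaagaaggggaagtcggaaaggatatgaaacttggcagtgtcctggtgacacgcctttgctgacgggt
C1qb, chr4:136613462-136613761: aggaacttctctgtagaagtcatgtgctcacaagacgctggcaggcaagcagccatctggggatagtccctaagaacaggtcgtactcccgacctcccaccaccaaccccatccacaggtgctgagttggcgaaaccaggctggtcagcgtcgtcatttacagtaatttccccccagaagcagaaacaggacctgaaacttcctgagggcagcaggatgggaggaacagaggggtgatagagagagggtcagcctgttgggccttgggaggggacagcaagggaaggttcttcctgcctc
C1qc, chr4:136620327-136620626: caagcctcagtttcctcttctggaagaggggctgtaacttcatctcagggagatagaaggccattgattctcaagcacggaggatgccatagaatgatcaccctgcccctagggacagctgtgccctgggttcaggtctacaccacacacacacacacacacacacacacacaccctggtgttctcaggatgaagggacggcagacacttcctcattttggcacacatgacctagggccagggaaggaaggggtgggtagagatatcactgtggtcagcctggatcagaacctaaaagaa
Isg15, chr4:156285254-156285553: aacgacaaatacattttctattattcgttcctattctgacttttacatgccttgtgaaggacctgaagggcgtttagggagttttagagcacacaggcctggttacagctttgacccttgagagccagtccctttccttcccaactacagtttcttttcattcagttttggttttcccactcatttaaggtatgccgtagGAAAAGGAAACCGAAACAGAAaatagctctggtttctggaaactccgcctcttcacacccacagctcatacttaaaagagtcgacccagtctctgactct
Tnc, chr4:63965394-63965693: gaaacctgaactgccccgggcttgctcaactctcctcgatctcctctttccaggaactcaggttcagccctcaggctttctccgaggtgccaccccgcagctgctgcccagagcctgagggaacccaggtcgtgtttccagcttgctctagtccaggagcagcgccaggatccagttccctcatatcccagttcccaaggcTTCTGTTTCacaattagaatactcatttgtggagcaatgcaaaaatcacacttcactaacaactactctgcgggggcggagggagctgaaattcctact

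The Isg15 promoter held 3 overlapping matches, which began 50, 44 and 38 bases before the start (GAAAAGGAA, GAAACCGAA and GAAACAGAA, first bases at -50, -44 and -38). Isg15 encodes a ubiquitin-like protein induced by interferon. The Tnc promoter held 1 match on its other strand, at -49, and the 3 C1q promoters held none. None of the 5 windows held TGACTCA (the AP-1 motif) or CACGTG (an E-box). Over 21770 promoters of the same length, GAAANNGAA occurred in 8.78%, TGACTCA in 4.70% and CACGTG in 7.81%. Among the 687 chromosome 4 genes the shares were 6.40% (44 genes), 3.78% (26 genes) and 11.1% (76 genes). A match is a description of letters in this window, and its absence says nothing of the factor.

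The libraries held between 113575859 and 156880766 counts. C1galt1c1, on chromosome X, had 19.6 ± 3.05 CPM across WT tumours and 11.3 ± 0.775 CPM across Tn tumours (n = 6 each, ± SD), with a log2 fold change of -0.80 ± 0.11 (SE) and an adjusted p of 0.000201 in the quasi-likelihood test of edgeR (Benjamini-Hochberg), and every Tn tumour lay below every WT tumour. The tissue label of breast was met by markers of mammary carcinoma epithelium, whose 8 genes summed to between 1920 and 3994 CPM across WT tumours and between 1818 and 3302 CPM across Tn tumours, with 2 of 8 lower in Tn tumours. Some other cell types differed more and some did not. Of 8 neutrophil and 8 skeletal muscle markers, 0 rose and 0 fell, and of 8 adipocyte markers 1 fell. All 8 T cell markers rose (summed level 3.15 to 17.6 CPM in WT, 37.3 to 350 CPM across Tn tumours). Of 8 macrophage markers, 5 rose (386 to 637 CPM against 449 to 1170 CPM). Of 8 fibroblast markers, 7 fell and 1 rose (7679 to 20065 CPM against 3149 to 4515 CPM). Tn tumour 4 held 659 CPM of B cell markers against 3.59 to 12.5 CPM in the other Tn tumours. The WT tumours held 1.66 to 2.75 CPM, and 4 of the 5 B cell markers tested rose. Tn tumour 6 held 3735 CPM of keratinocyte markers against 16.8 to 140 CPM in the other Tn tumours. The WT tumours varied widely in keratinocyte markers, from 52.0 to 825 CPM. In bulk tissue, fewer cells of a type and less RNA per cell cannot be told apart. Beyond calling the tumours of a group biological replicates, the labels do not say how they are related, so p-values measure the spread between these samples.

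Genes of chromosome 4 were more often higher than lower in Tn tumours. Of the 687 genes, 269 rose (39.2%), 68 fell (9.90%) and 350 did not pass the test (edgeR quasi-likelihood, adjusted p below 0.05 over all genes tested). Over all 19255 genes tested, 19.5% rose and 17.4% fell. Among the 10939 protein-coding genes that met the same limit of 5 CPM and were tested, on all chromosomes, 25.4% rose and 17.7% fell. The rising share on chromosome 4 was thus above both backgrounds and the falling share below both.

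Most of these differences were small. The median log2 fold change of the 687 genes was 0.19 (1.14-fold), with quartiles of -0.07 and 0.39, against 0.01 over all genes tested and 0.05 for protein-coding genes at 5 CPM or more on the other chromosomes (quartiles -0.20 and 0.28). A log2 fold change above 0 was seen for 477 genes (69.4%), against 55.0% elsewhere. Of the 269 genes that rose, 197 rose by less than 1.5-fold and 24 by at least 2-fold. Of the 68 that fell, 38 fell by less than 1.5-fold and 21 by at least 2-fold, so large falls were almost as many as large rises although rises were far more frequent. The 5th and 95th percentiles of the log2 fold change were -0.57 and 0.92.

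Separation between the groups showed the same lean. Every Tn tumour lay above every WT tumour for 167 genes (24.3%), where 12.3% of protein-coding genes at 5 CPM or more did so on all chromosomes. Every Tn tumour lay below every WT tumour for 34 genes (4.95%), where the share on all chromosomes was 9.37%.

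The lean was present in each Tn tumour. Per tumour, the log2 ratio of a gene was taken as log2(CPM + 1) minus the mean over the WT tumours, or over the other 5 WT tumours for a WT tumour, and the median over the 687 genes was formed. It was 0.19, 0.18, 0.19, 0.16, 0.17 and 0.10 in Tn tumours 1 to 6, and -0.03, -0.05, 0.02, 0.06, -0.03 and 0.03 in WT tumours 1 to 6. Every Tn tumour lay above every WT tumour, with group means of 0.16 ± 0.03 and 0.00 ± 0.04 (SD, n = 6 each). Over the other chromosomes the Tn tumours had medians between 0.01 and 0.06. The ratio of chromosome 4 exceeded that of the rest of the genome in all 6, by the least in Tn tumour 6. There it was 0.10 against 0.06 elsewhere, a smaller excess than in WT tumour 4, at 0.06 against -0.01. Relative to the rest of the genome, Tn tumour 6 thus did not stand clear of the WT tumours.

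Among the 20 chromosomes with such genes, chromosome 4 had the highest median. Chromosome 6 followed at 0.17, chromosome 1 at 0.15 and chromosome 8 at 0.14, so the order at the top rests on differences of a few hundredths. The shares were close as well, with 38.4% of genes rising on chromosome 1 and 36.4% on chromosome 6. On chromosome 6, 10.2% fell and 71.6% had a fold change above 0, a larger share than on chromosome 4. The lowest medians were -0.12 on chromosome X and -0.19 on chromosome 10.

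**Figure D1:**
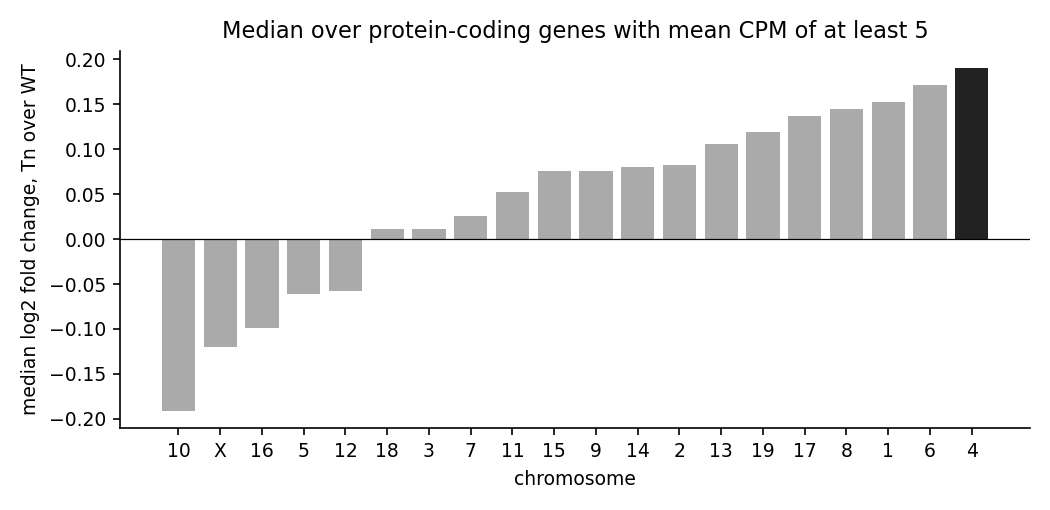
Median log2 fold change, Tn over WT, of protein-coding genes with a mean CPM of at least 5 on each chromosome. Chromosome 4 stands highest at 0.19, close to chromosomes 6, 1 and 8, and chromosome 10 stands lowest at -0.19.

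The shift was spread along most of the chromosome and was not uniform. In 16 bins of 10 Mb (GRCm39), the median log2 fold change was above 0 in 13. In 7 bins the median ratio of every Tn tumour lay above that of every WT tumour, and in 1 bin every Tn tumour lay below. The densest bins all had positive medians. The bin from 130 Mb held 121 genes, with a median of 0.27, 58 that rose and 6 that fell. The bin from 40 Mb held 88 genes, with a median of 0.21, 39 that rose and 7 that fell. The bin from 120 Mb held 86 genes, with a median of 0.23, 45 that rose and 6 that fell.

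In the bin from 120 Mb the Tn tumours ran from 0.15 to 0.25 on the ratio scale and the WT tumours from -0.05 to 0.06. In the bin from 130 Mb the Tn tumours ran from 0.17 to 0.30 and the WT tumours from -0.05 to 0.05. The groups did not overlap in either. The bins from 100 Mb (48 genes, 24 rose and 6 fell) and 110 Mb (62 genes, 30 rose and 5 fell) had medians of 0.25 and 0.23 and also held the groups apart. With bins of 5 Mb, 26 of 32 medians were above 0, and with bins of 20 Mb, 8 of 8.

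**Figure D2:**
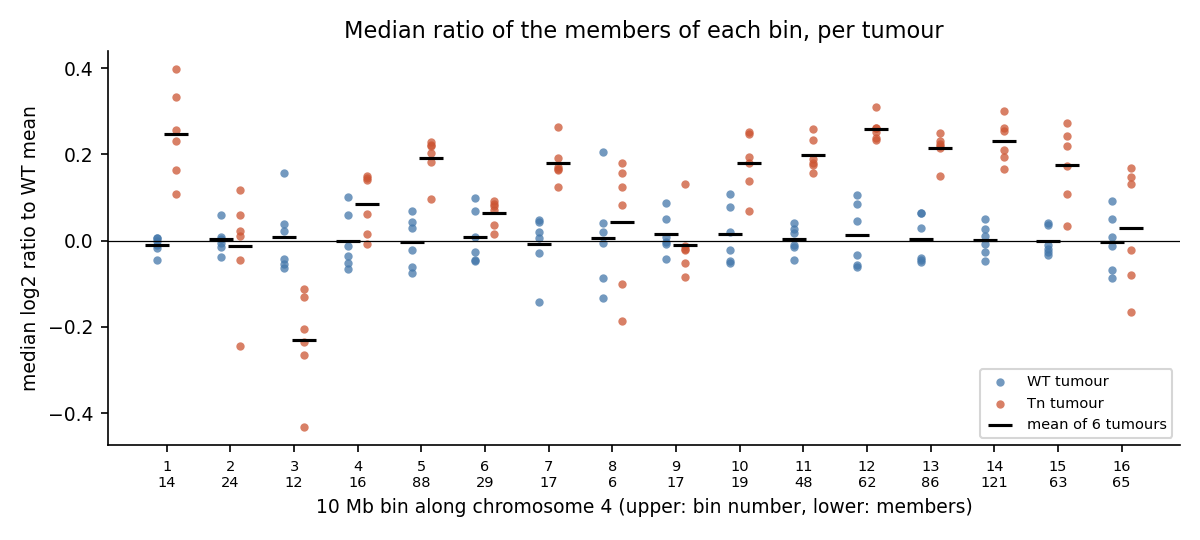
Median log2 ratio to the WT mean of the genes in each 10 Mb bin, 1 point per tumour, with a bar for the mean of 6 tumours, and the number of genes under each bin. Tn tumours lay above WT tumours in 7 of 16 bins, below them in the third bin, and mixed with them in the last.

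Near the first end of the chromosome the sign of the median log2 fold change switched more than once. The first bin held 14 genes, of which 6 rose and 0 fell, with a median of 0.29. The bin from 10 Mb held 24 genes with a median of -0.12 (7 rose, 4 fell). There the Tn tumours had ratios of -0.24, 0.02, 0.06, 0.12, 0.01 and -0.05, and the WT tumours ran from -0.04 to 0.06. The groups overlapped in that bin, and the Tn tumours differed in sign. The bin from 20 Mb held 12 genes with a median of -0.24 (1 rose, 5 fell). In the bin from 20 Mb the Tn tumours had ratios of -0.43, -0.23, -0.13, -0.11, -0.21 and -0.26, all below the lowest WT tumour at -0.06. The bins with fewer than 20 genes, those from 0, 20, 30, 60, 70, 80 and 90 Mb, rest on few genes each.

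Comparing the median of the 20 genes before and the 20 after each position, the largest change of level lay between Esrp1 (start 11331933) and Virma (start 11485958), where it went from 0.29 to -0.23. Esrp1 is an epithelial splicing regulator and Virma a subunit of the RNA methyltransferase complex that makes m6A. With 10 genes on either side the largest change fell between Ints8 and Dpy19l4, a few genes away, and was -0.51. With 40 genes on either side it was instead a rise, from -0.13 to 0.31, between Lyrm2 (start 32800253) and Ube2j1 (start 33031416). In single Tn tumours the position differed: it was Dpy19l4 and Esrp1 in tumour 1, Rad54b and Gem in tumour 3, Akirin2 and Orc3 in tumour 5 and Orc3 and Rars2 in tumour 2. In Tn tumours 4 and 6 it lay elsewhere, at Lpar1 and Ecpas and at Eif2b3 and Btbd19. So 4 of 6 Tn tumours placed it at or near one or the other edge of the same interval of low values, and no single break point was shared by all.

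**Figure D3:**
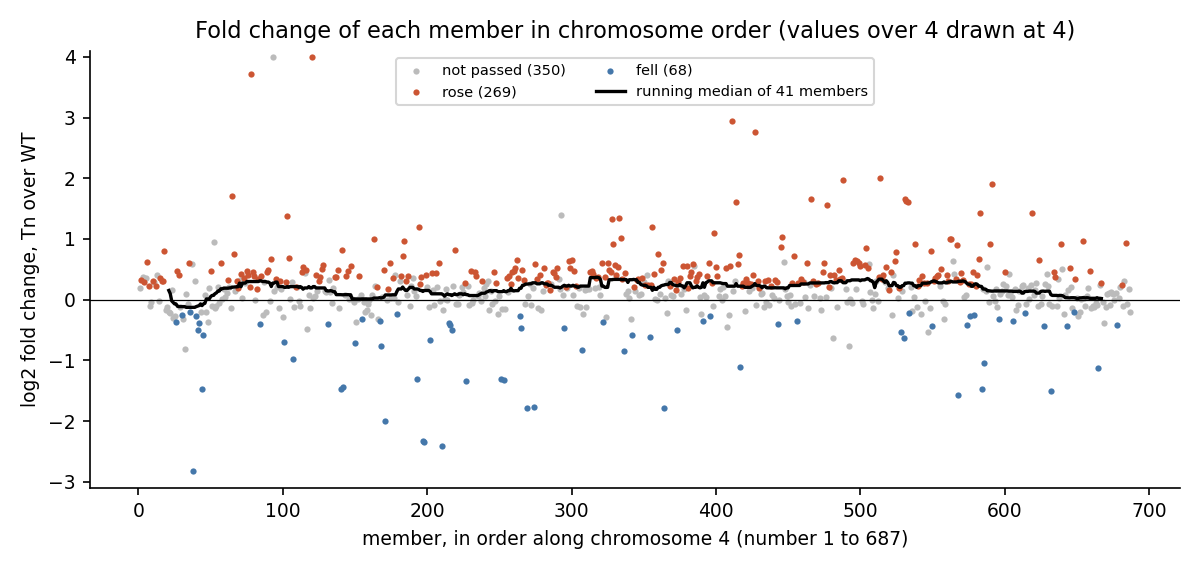
Log2 fold change of each of the 687 genes in chromosome order, coloured by call, with a running median of 41 genes. The running median stays above 0 except near the first end. Pax5, which rose, and Ccl21a, which did not pass, exceed 4 and are drawn at 4.

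The interval from Virma to Lyrm2, chosen after the values were seen, held 33 genes with a median of -0.14. Of these, 4 rose (12.1%), 9 fell (27.3%) and 20 did not pass. Its median ratios were -0.33, -0.08, -0.04, 0.002, -0.07 and -0.14 in Tn tumours 1 to 6. The WT tumours ran from -0.05 to 0.11, so Tn tumours 3 and 4 lay within the WT range. The 22 genes before the interval held 10 that rose and 0 that fell (median 0.29). The 567 genes from Ube2j1 to Spsb1 held 244 that rose and 53 that fell (median 0.20). The genes that fell in the interval were Pdp1, Pip4p2, Cpne3, Atp6v0d2, Ccnc, Tstd3, Usp45, Coq3 and Faxc, of unrelated roles, and those that rose were Tmem67, Rbm12b2, Ripk2 and Manea. These genes are named because they passed the test within the interval, after their values were seen.

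Coq3 (ENSMUSG00000028247, chromosome 4, 21879673 to 21912162), a methyltransferase of ubiquinone synthesis, had 11.95 to 21.0 CPM in WT tumours (median 15.2) and 5.00 to 6.54 CPM across Tn tumours (median 5.71). The groups did not overlap, and the log2 fold change was -1.47 with an SE of 0.14 (edgeR adjusted p = 2.61e-05). Among other genes of the interval, Tstd3 fell from 8.54 ± 0.462 to 6.02 ± 0.892 CPM, and Ccnc, which encodes cyclin C of the Mediator kinase module, fell from 32.0 ± 1.57 to 26.5 ± 1.74 CPM (SD, n = 6 each). Both also had every Tn tumour below every WT tumour. Atp6v0d2, a subunit of the vacuolar proton pump known from macrophages and osteoclasts, fell most of all 687 genes, from 13.1 to 42.6 CPM in WT tumours (median 28.1) to 0.745 to 7.82 CPM across Tn tumours (median 3.91). Its log2 fold change was -2.82 ± 0.52 (SE, edgeR adjusted p = 0.0016). Ripk2, a kinase of NOD receptor signalling, went the other way, at 17.1 to 21.7 CPM across WT tumours and 23.99 to 33.7 CPM across Tn tumours (log2 fold change 0.61 ± 0.09, edgeR adjusted p = 0.000432).

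There were 14 runs of 4 or more consecutive genes with the same call, all 14 of genes that rose, and the longest run of genes that fell had 3. With 39.2% of the genes rising and 9.90% falling, longer runs of rises than of falls follow from the shares themselves, and the runs are given as positions only. Consecutive genes can share reads where they overlap, because the counting ignored strand, and 85 of the 687 overlapped another of them.

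The longest run had 11 genes, from Rnf220 to Kdm4a (117128660 to 118037240), with log2 fold changes from 0.33 to 1.34 and a median of 0.56. In order they were Rnf220, Eri3, Dmap1, Slc6a9, B4galt2, Atp6v0b, Dph2, Ipo13, Artn, St3gal3 and Kdm4a. Rnf220, a ubiquitin ligase, had 76.4 to 83.2 CPM in WT tumours (median 80.1) and 110.7 to 138.0 CPM across Tn tumours (median 122). The gap between the groups was several times the spread within either, with a log2 fold change of 0.61 ± 0.06 (edgeR adjusted p = 2.41e-05). The largest rises of the run were in the glycine transporter gene Slc6a9, from 3.48 ± 1.17 to 8.77 ± 2.51 CPM, and the neurotrophic factor gene Artn, from 4.73 ± 1.19 to 11.99 ± 4.83 CPM. Slc6a9 overlaps B4galt2 in position, so their reads cannot be fully told apart. Artn was the only gene of the run whose groups overlapped. Kdm4a, a histone demethylase at the end of the run, rose least, from 70.8 ± 5.65 to 89.3 ± 4.04 CPM.

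The next longest run had 7 genes, from Ssbp3 to Yipf1 (106767898 to 107217020), with a median of 0.45. Ssbp3, Mrpl37, Tceanc2, Tmem59, Lrrc42, Ift25 and Yipf1 rose by log2 fold changes of 0.26 to 0.66. Tmem59, a Golgi and endosome membrane protein, went from 234.5 ± 11.3 to 324 ± 35.1 CPM, and Ift25, a subunit of the ciliary transport complex, from 13.01 ± 1.59 to 20.5 ± 3.06 CPM (SD, n = 6 each). Tceanc2 and Tmem59 overlap in position. A run of 6, from Bag1 to Ube2r2, had a median of 0.43.

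At the far end the shift was not seen. The last bin, from 150 Mb, held 65 genes with a median of 0.03, of which 11 rose and 6 fell. The Tn tumours disagreed there: their ratios were 0.13, -0.08, 0.15, -0.02, 0.17 and -0.17, while the WT tumours ran from -0.09 to 0.09. Tn tumours 1, 3 and 5 lay above every WT tumour, Tn tumour 6 below every one, and Tn tumours 2 and 4 among them. Single genes of this bin nonetheless differed clearly. Isg15 had 19.3 to 34.2 CPM in WT (median 22.1) and 33.7 to 57.5 CPM across Tn tumours (median 46.0), overlapping through 1 WT and 1 Tn tumour, with a log2 fold change of 0.93 ± 0.16 (edgeR adjusted p = 0.000847). Camta1, a calmodulin-binding transcription activator, fell from 24.6 ± 14.01 to 8.68 ± 1.03 CPM, a log2 fold change of -1.50 ± 0.30 (edgeR adjusted p = 0.00257).

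The genes were then read by role, in 14 lists drawn up with earlier results of these data known. The counts of each list stand beside the shares over all 687 genes, of which 39.2% rose and 9.90% fell. The lists hold 199 of the 687 genes, and the 488 genes in no list had 202 that rose, 37 that fell and a median of 0.19. Without the lists of immune, matrix, stromal and endothelial genes, 619 genes remained, of which 245 rose and 51 fell, with a median of 0.19. The 68 genes of those lists had 24 that rose, 17 that fell and a median of 0.18. The share that fell was 25% among those 68 genes and 8.24% among the 619, which still include genes that cells other than carcinoma cells express. The part of cell makeup in the median was not tested.

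The 3 chains of complement C1q all rose and were among the members with the largest increases. C1q starts the classical complement pathway, and macrophages are its main source in tissue. C1qa (ENSMUSG00000036887, chromosome 4, 136623228 to 136626114) had 194 to 328 CPM in WT tumours (median 208) and 353 to 1118 CPM across Tn tumours (median 669). C1qb had 111 to 209 CPM in WT (median 131) and 222 to 766 CPM across Tn tumours (median 411). C1qc had 140 to 239 CPM in WT (median 157) and 266 to 854 CPM across Tn tumours (median 487). The groups did not overlap for any chain, Tn tumours 1 and 2 were highest and Tn tumours 4 and 5 lowest for all 3. The log2 fold changes were 1.61 ± 0.27, 1.66 ± 0.30 and 1.63 ± 0.29 (edgeR adjusted p = 0.000973, 0.00131 and 0.00117). The summed macrophage markers followed a like order, at 1168 and 1170 CPM across Tn tumours 1 and 2 and 550 and 449 CPM across Tn tumours 4 and 5, and their part in the C1q difference was not tested.

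Of 28 listed leukocyte receptor and signalling genes, 21 met the level rule, of which 13 rose, 0 fell and 8 did not pass, with a median log2 fold change of 0.95 (0.62 with limma voom and 0.63 with the replicate number as a block). Lck, the kinase of the T cell receptor, had 3.61 to 6.33 CPM in WT tumours (median 4.25) and 10.8 to 97.6 CPM across Tn tumours (median 16.9). Every Tn tumour lay above every WT tumour, and Tn tumour 4 stood far above the rest (log2 fold change 2.75 ± 0.53, edgeR adjusted p = 0.00186). Cd52, a surface glycoprotein of lymphocytes, had 15.02 to 42.0 CPM across WT tumours and 43.3 to 229.6 CPM across Tn tumours (1.97 ± 0.38, edgeR adjusted p = 0.00193). Themis2, a signalling protein of B cells and macrophages, rose from 14.02 ± 4.59 to 44.2 ± 21.7 CPM. Padi4, which turns arginine in histones and other proteins into citrulline, rose from 204 to 312 CPM in WT tumours (median 253) to 340 to 694 CPM across Tn tumours (median 518), with a log2 fold change of 1.00 ± 0.17 (edgeR adjusted p = 0.000784). The T cell and macrophage markers given above moved with this list, and their part was not tested.

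In Pax5, a transcription factor that defines B cells, 1 tumour carried the mean. The gene had 0.0572 to 0.2303 CPM in WT tumours and 0.0891 to 0.660 CPM in 5 Tn tumours, but 77.7 CPM in Tn tumour 4, the tumour with 659 CPM of B cell markers. Its log2 fold change of 6.78 ± 1.83 (edgeR adjusted p = 0.0126) was 1.61 without Tn tumour 4 (adjusted p = 0.0219), and the call was lost with limma voom (2.96, adjusted p = 0.0785). Cnr2, the cannabinoid receptor of immune cells, reached 33.6 CPM in the same tumour, and its log2 fold change of 2.01 became 1.28 without it (edgeR adjusted p = 0.00374). Ccl21a, a chemokine gene of lymphoid tissue that is named here after its values were seen, had 268 CPM in Tn tumour 4 and at most 5.12 CPM in every other tumour, and did not pass (edgeR adjusted p = 0.0853). Mice carry near-identical copies of Ccl21, so its count is uncertain.

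Of the tumour necrosis factor receptor genes, which cluster towards the far end of the chromosome, 3 of 7 listed met the rule, and 2 of the 3 rose. Tnfrsf1b, which encodes TNF receptor 2, had 96.4 to 133 CPM in WT tumours (median 106) and 168 to 256 CPM across Tn tumours (median 213), without overlap (0.92 ± 0.11, edgeR adjusted p = 0.000101). Tnfrsf14, the receptor also called HVEM, rose from 5.14 ± 1.82 to 10.02 ± 2.75 CPM (0.96 ± 0.28, edgeR adjusted p = 0.0162). Tnfrsf9, the costimulatory receptor 4-1BB, had 48.2 ± 18.6 and 64.4 ± 24.3 CPM and did not pass (edgeR adjusted p = 0.275). Tnfrsf18 lay under the level rule, at 0.690 ± 0.136 CPM across WT tumours and 2.92 ± 2.22 CPM across Tn tumours. At this low level it rose in the fit across the whole table (2.08 ± 0.45, edgeR adjusted p = 0.00374).

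Of 5 genes listed under interferon sensing and response that met the rule, 3 rose, 0 fell and 2 did not pass, with a median of 0.32. Isg15 was the largest. Zc3h12a, an RNase that degrades inflammatory transcripts, rose from 22.1 ± 5.67 to 33.2 ± 3.68 CPM without overlap (0.59 ± 0.16, edgeR adjusted p = 0.0124). Rigi, the sensor of viral RNA, had a log2 fold change of 0.32 ± 0.10 (edgeR adjusted p = 0.0316), but the adjusted p lay between 0.0509 and 0.0648 when any 1 of WT tumours 2, 3, 4 and 6 or Tn tumours 2, 4 and 5 was left out. Map3k7, the kinase TAK1, had 86.9 ± 5.82 and 80.8 ± 3.53 CPM and did not pass.

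The matrix genes fell more often than they rose. Of 16 genes of matrix proteins and matrix enzymes that met the rule, 1 rose (Sdc3), 9 fell and 6 did not pass, with a median log2 fold change of -0.49, which was -0.76 without Tn tumour 3. Tnc (ENSMUSG00000028364, chromosome 4, 63878022 to 63965252) encodes tenascin C, a matrix glycoprotein of healing wounds and tumour stroma. It held 1649, 2120, 2091, 2069, 2006 and 2271 CPM in WT tumours 1 to 6 and 334, 451, 299, 438, 626 and 293 CPM across Tn tumours 1 to 6. The highest Tn tumour, at 626 CPM, lay far below the lowest WT tumour, at 1649 CPM. The log2 fold change was -2.32 ± 0.18 (SE, edgeR adjusted p = 8.28e-06).

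Pappa, a protease that cleaves insulin-like growth factor binding proteins, lies next in the order after Tnc and had 7.07 to 11.95 CPM across WT tumours and 0.445 to 4.24 CPM across Tn tumours (-2.34 ± 0.42, edgeR adjusted p = 0.00131). Svep1, a large cell adhesion protein, fell from 20.2 to 77.5 CPM in WT tumours (median 42.6) to 7.62 to 16.7 CPM across Tn tumours (median 9.82), with a log2 fold change of -2.004 ± 0.30 (edgeR adjusted p = 0.000472). Mfap2, a microfibril protein, fell from 13.1 ± 3.49 to 4.42 ± 0.721 CPM and Col27a1, a fibrillar collagen, from 17.3 ± 2.83 to 6.99 ± 2.15 CPM, both without overlap. Frem1, a basement membrane protein outside the list, had 9.94 to 29.0 CPM across WT tumours and 2.27 to 4.77 CPM across Tn tumours (-2.41 ± 0.28, edgeR adjusted p = 0.000102). Podn, a leucine-rich matrix proteoglycan, fell from 10.04 ± 2.56 to 2.90 ± 0.921 CPM. Of the 8 fibroblast markers, 7 fell and 1 rose in the same tumours, and their part in these falls was not tested.

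Of 10 stromal and contractile genes, 1 rose, 3 fell and 6 did not pass, with a median of -0.16. Pdpn, or podoplanin, fell from 37.9 ± 13.1 to 18.3 ± 7.44 CPM with overlap (-1.05 ± 0.28, edgeR adjusted p = 0.0112), and Fhl3, a muscle LIM protein, from 78.6 ± 8.37 to 55.3 ± 7.43 CPM without overlap. Tpm2, a tropomyosin of smooth muscle, fell from 66.3 ± 18.5 to 33.6 ± 19.7 CPM (-0.98 ± 0.31, edgeR adjusted p = 0.0269), with 72.5 CPM in Tn tumour 5 alone. Its adjusted p lay between 0.0509 and 0.0573 without WT tumour 6 or without Tn tumour 1, 2, 3 or 4. Nfib, a transcription factor, rose from 128 ± 10.1 to 195 ± 52.4 CPM. Pericyte and smooth muscle markers fell for 7 of 8 genes (424 to 790 CPM in WT, 127 to 352 CPM across Tn tumours).

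Of 10 endothelial genes, 5 fell, 1 rose and 4 did not pass, with a median of -0.41. Tek, the angiopoietin receptor TIE2, had 6.23 to 21.8 CPM in WT tumours (median 14.2) and 3.77 to 7.26 CPM across Tn tumours (median 5.21). Only WT tumour 1 lay within the range of the Tn tumours, and the log2 fold change was -1.34 ± 0.26 (edgeR adjusted p = 0.0018). Heyl, a Notch target, fell from 15.2 to 36.0 CPM in WT tumours to 2.69 to 10.8 CPM across Tn tumours (-1.79 ± 0.31, edgeR adjusted p = 0.00109), and Plpp3, a lipid phosphatase, from 32.5 ± 8.59 to 13.1 ± 2.35 CPM. Rap1gap, an inhibitor of the small GTPase Rap1, rose from 27.6 to 53.2 CPM to 68.1 to 86.1 CPM without overlap (0.92 ± 0.14, edgeR adjusted p = 0.000522). Endothelial markers fell for 5 of 8 genes (313 to 533 CPM in WT, 215 to 427 CPM across Tn tumours), and their part was not tested.

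Of 21 genes of glycan synthesis and breakdown, 9 rose, 0 fell and 12 did not pass, with a median of 0.28. The share that rose was near the 39.2% of all 687 genes. St3gal3, which caps galactose with sialic acid, had 15.5 to 18.6 CPM in WT tumours (median 16.6) and 25.7 to 41.6 CPM across Tn tumours (median 32.4). The WT tumours were tightly grouped and every Tn tumour lay above them (1.01 ± 0.12, edgeR adjusted p = 8.68e-05). B4galt2, a galactosyltransferase of N-linked glycans, had 21.1 to 25.4 CPM across WT tumours and 31.7 to 53.1 CPM across Tn tumours (0.91 ± 0.12, edgeR adjusted p = 0.000186). Both genes lie in the longest run of rises. Galnt12, which places the first sugar of O-linked glycans, had 4.88 to 6.76 CPM across WT tumours and 9.03 to 13.2 CPM across Tn tumours (0.81 ± 0.12, edgeR adjusted p = 0.000318). Dhdds, of the synthesis of the lipid carrier dolichol, rose from 42.0 ± 3.03 to 54.0 ± 2.84 CPM. The other genes that rose were Alg2, Fuca1, Ddost, Man1c1 and Pigv.

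Of 22 splicing and ribosomal protein genes, 11 rose, 0 fell and 11 did not pass, with a median of 0.21. Ppie, a cyclophilin of the spliceosome, had 21.4 to 27.0 CPM across WT tumours and 36.6 to 39.7 CPM across Tn tumours (0.61 ± 0.06, edgeR adjusted p = 5.16e-05). Rpl11, a ribosomal protein gene, rose from 346 ± 33.1 to 473 ± 35.5 CPM without overlap. Rps20 was near the threshold, at 744 ± 95.9 and 907 ± 98.8 CPM (edgeR adjusted p = 0.0434), and did not pass when any 1 of 9 tumours was left out (adjusted p from 0.0657 to 0.0788). Prpf38a, a splicing factor, rose from 43.8 ± 1.28 to 55.7 ± 2.12 CPM. Ribosomal protein genes have many processed copies in the genome, so their counts are less certain.

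Of 18 mitochondrial genes, 9 rose, 0 fell and 9 did not pass, with a median of 0.29. Uqcrh, a subunit of respiratory complex III, rose from 125 ± 14.4 to 174 ± 11.7 CPM (0.48 ± 0.08, edgeR adjusted p = 0.000819). Tomm5, of the import pore of the outer membrane, rose from 32.6 ± 3.8 to 42.2 ± 2.12 CPM, and Stoml2, an inner membrane scaffold, from 47.5 ± 5.34 to 58.9 ± 2.60 CPM. Every Tn tumour lay above every WT tumour for these 3 genes.

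Of 18 regulators of transcription and chromatin, 7 rose, 1 fell (Spen) and 10 did not pass, with a median of 0.18. Here too the share that rose was near the 39.2% of the whole chromosome. Nfia, a nuclear factor I protein, rose from 42.2 to 52.3 CPM in WT tumours to 57.1 to 74.5 CPM across Tn tumours (0.45 ± 0.08, edgeR adjusted p = 0.000839). Mllt3, a subunit of the super elongation complex, rose from 33.9 ± 3.00 to 59.5 ± 13.7 CPM and the histone deacetylase gene Hdac1 from 86.1 ± 6.12 to 114 ± 9.39 CPM, both without overlap. Klf4, a factor of epithelial differentiation, rose from 18.3 ± 3.34 to 36.6 ± 15.2 CPM with 65.5 CPM in Tn tumour 6.

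The lists of cell cycle and metabolic genes had medians near 0. Of 21 genes of the cell cycle and DNA replication, 3 rose, 4 fell and 14 did not pass, with a median of -0.11. That median was -0.05 without WT tumour 2, -0.06 without Tn tumour 1 or Tn tumour 6 and -0.21 without Tn tumour 2. Cdkn2c, an inhibitor of cyclin D kinases, rose from 107 ± 6.96 to 146 ± 16.6 CPM and Stmn1, which destabilises microtubules, from 45.4 ± 3.49 to 68.7 ± 12.4 CPM, while the kinase gene Plk3 fell from 30.6 ± 1.83 to 23.8 ± 2.46 CPM. Cdkn2a lay far under the level rule at a mean of 0.650 CPM and did not pass (edgeR adjusted p = 0.114), whereas Mtap, a neighbour of the locus, had 794 ± 88.8 CPM across WT tumours and 849 ± 79.6 CPM across Tn tumours and did not pass either (edgeR adjusted p = 0.414). Cdkn2b, beside Cdkn2a and also under the level rule, fell from 3.35 ± 0.912 to 1.90 ± 0.684 CPM with overlap (-0.82 ± 0.25, edgeR adjusted p = 0.0246). Cdkn2b is named here after its values were seen.

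Of 21 genes of sugar, lipid and redox metabolism, 3 rose, 4 fell and 14 did not pass, with a median of -0.03, which lay between -0.09 (without Tn tumour 5) and 0.03 (without WT tumour 3) when single tumours were left out, and was above 0 also without WT tumour 6, Tn tumour 3 or Tn tumour 6. Eno1, the glycolytic enolase, had 670 to 953 CPM across WT tumours and 649 to 967 CPM across Tn tumours, an almost complete overlap (-0.07 ± 0.12, edgeR adjusted p = 0.658). Prdx1, a peroxiredoxin, rose from 418 to 538 CPM to 591 to 730 CPM (0.48 ± 0.08, edgeR adjusted p = 0.00106). Gpx7, a peroxidase of the endoplasmic reticulum, fell from 13.4 ± 4.37 to 3.94 ± 1.29 CPM. Urod, of haem synthesis, rose from 32.2 ± 2.74 to 41.5 ± 2.25 CPM.

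Of 10 epithelial genes, 5 fell, 1 rose and 4 did not pass, with a median of -0.44. Ptprf, a receptor phosphatase of cell junctions, had 123 to 213 CPM across WT tumours and 85.7 to 118 CPM across Tn tumours, without overlap (-0.85 ± 0.12, edgeR adjusted p = 0.000346). Kazn, a junction protein, fell from 10.7 ± 3.43 to 3.85 ± 1.71 CPM and Epb41l4b from 16.4 ± 4.54 to 9.68 ± 2.20 CPM. The 1 rise was in Aqp3, a water and glycerol channel of skin, at 0.539 to 3.37 CPM in WT tumours, 3.18 to 4.22 CPM in 5 Tn tumours and 118 CPM in Tn tumour 6, the tumour with 3735 CPM of keratinocyte markers. Its log2 fold change of 3.71 ± 1.11 (edgeR adjusted p = 0.0207) was 1.10 without that tumour and no longer passed (adjusted p = 0.0787).

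**Figure D4:**
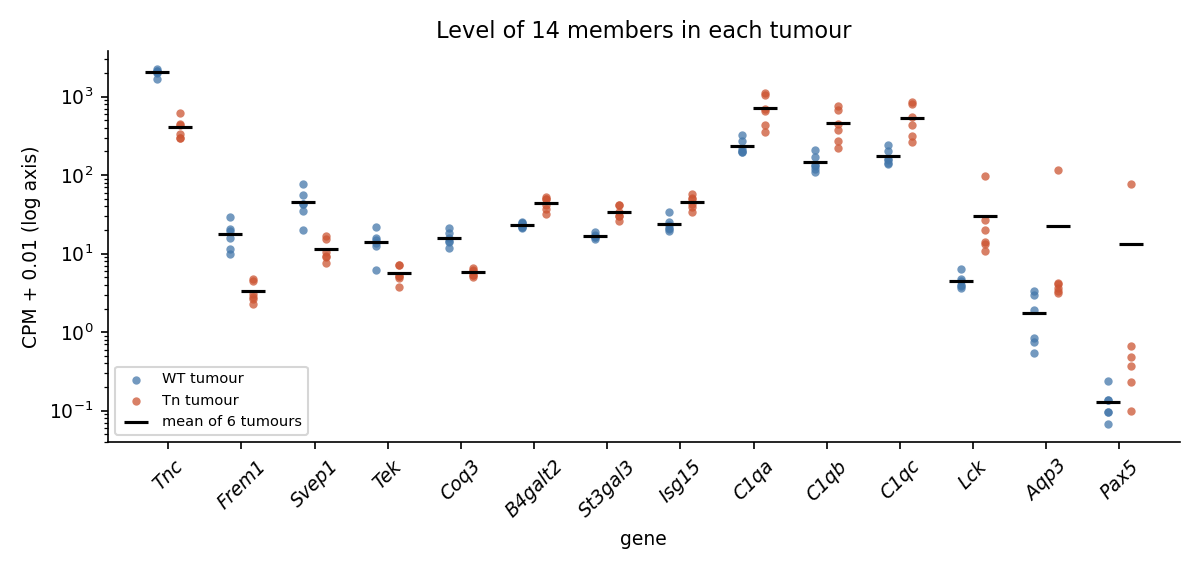
CPM of 14 chromosome 4 genes in each tumour on a log axis, with a bar for the mean of 6 tumours. CPM is not divided by gene length, so only tumours within a gene can be compared. Tnc, Frem1 and Svep1 separate downwards, C1qa, C1qb, C1qc and St3gal3 upwards, and 1 tumour carries the mean of Pax5 and of Aqp3.

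Some of the largest changes lay outside the lists. Mob3b, a protein of the MOB kinase activator family, had 10.5 to 23.3 CPM across WT tumours and 35.9 to 75.8 CPM across Tn tumours (1.71 ± 0.25, edgeR adjusted p = 0.000412), and Zfp979, a zinc finger gene in a cluster of close relatives whose reads may be shared, rose from 2.83 ± 1.23 to 10.6 ± 2.91 CPM. Tlr12, a toll-like receptor, had 0.486 to 3.45 CPM across WT tumours and 3.77 to 33.2 CPM across Tn tumours (2.94 ± 0.59, edgeR adjusted p = 0.00249). Each kept its groups apart.

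The fold change varied with summed exon length, which the level rule did not use. In 4 groups of equal size from the shortest to the longest genes of chromosome 4, the medians were 0.30, 0.21, 0.14 and 0.01, and the shares that rose were 52.3%, 43.6%, 36.8% and 23.8%. Genes on the other chromosomes fell in the same order within the same length limits (2680.5, 4158 and 6353.5 bases), with medians of 0.17, 0.11, 0.04 and -0.08. Chromosome 4 was higher than the rest in each group, by 0.13, 0.09, 0.11 and 0.09. Its genes were somewhat shorter, with a median summed exon length of 4158 bases against 4698.5 elsewhere.

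Base composition gave a less even picture, though chromosome 4 was again higher than the rest in each group. In 4 groups by the GC content of the canonical transcript, the chromosome 4 medians were 0.09, 0.20, 0.23 and 0.20 from lowest to highest GC, against -0.02, 0.03, 0.08 and 0.13 elsewhere. The differences were 0.11, 0.17, 0.15 and 0.06, and only the medians elsewhere rose steadily with GC. The median GC content was 51.6% on chromosome 4 and 50.2% elsewhere. In groups by mean CPM, the medians were 0.18, 0.22, 0.18 and 0.17 from lowest to highest, and the 334 genes of the plus strand and the 353 of the minus strand had medians of 0.18 and 0.20. The parts of length and composition in the shift were not tested beyond these groups.

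**Figure D5:**
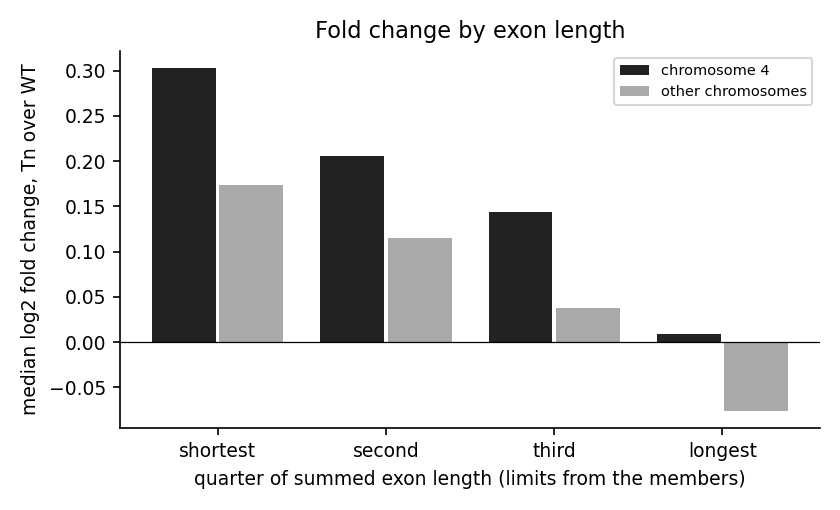
Median log2 fold change, Tn over WT, in 4 groups of summed exon length, for chromosome 4 and for the other chromosomes, with the length limits set by the chromosome 4 genes. Both series decline from short to long genes and chromosome 4 lies above the rest in each group.

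The spread between tumours was summarised per gene. The median SD of log2(CPM + 1) within a group was 0.14 in WT and 0.16 in Tn tumours. The widest spread among Tn tumours was that of Ccl21a and Pax5, for the single tumour described above.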

How the data were processed

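RNA of 12 tumours, 6 WT and 6 Tn, was measured. Per the labels' protocols, RNA came from homogenised tumour tissue and stranded poly(A) libraries were made. Per the submitters' processing notes, reads passed FastQC and fastp 0.23, were aligned to GRCm39 with STAR 2.7.11a and were counted by featureCounts (Subread 2.1.1). The deposited values are raw counts per gene, summed over the exons of an Ensembl annotation with strand ignored, beside a summed exon length in bases, per the file headers. Reads of overlapping genes on opposite strands therefore cannot be told apart. The members and lists were chosen with earlier results of these data known.

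Symbols and biotypes were taken from GENCODE M39, which matched 56630 of 57186 identifiers. Counts were scaled by TMM, genes were filtered with filterByExpr by group, and Tn was compared with WT by the robust quasi-likelihood test of edgeR 4.0.16 (R 4.3.3), with Benjamini-Hochberg adjustment over 19255 genes and a threshold of 0.05. Log2 fold changes are given ± SE. The same fit was also run on simulated counts with known changes, drawn with the dispersions of these data. CPM per tumour is TMM-scaled, except in the level rule, which uses column totals. Totals ran from 113575859 to 156880766 counts, and the biological coefficient of variation was 0.358. No 2 libraries of a group agreed within sampling noise (lowest chi-square per degree of freedom 41.4).

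Genes were named by rule: C1galt1c1, the 10 largest rises and 10 largest falls past the threshold, up to 4 genes per list by smallest p, the 5 highest in CPM, those beside the largest step, those in the 2 longest runs and those nearest the level limit, with C1qa, C1qb, C1qc, Tnc, Cdkn2a and Tnfrsf18 in any case. Some genes that this rule selects are not reported here. Genes named as called in the interval of low values, Ccl21a and Cdkn2b were added after their values were seen, as were the groups by length, GC content, level and strand. Promoters were read from the GRCm39 genome. Alternatives covered scaling, filter, test (DESeq2 1.42.0, limma 3.58.1), threshold, members, bins, windows, pseudocount, a replicate block and tumours left out.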

Additional observations from a re-analysis of the deposited data

Results flagged for a closer look

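In 220 groups of 6 values, 18 held a tumour far from the other 5 by Dixon's criterion, which chance alone meets in about 1 in 20 groups. Of the 18, 5 were in Tn tumour 6 and 4 in Tn tumour 4, and none was in WT tumours 2, 3 or 5 or in Tn tumour 2. Tn tumour 4 was highest for Pax5 at 77.7 CPM (next 0.660), Lck at 97.6 CPM (next 26.9), Cnr2 at 33.6 CPM (next 9.44) and Podn at 4.72 CPM (next 2.91). Tn tumour 6 was highest for Aqp3 at 118 CPM (next 4.22) and Klf4 at 65.5 CPM (next 38.1). It was also lowest for the median log2 ratio of the whole chromosome at 0.101 (next 0.157), of the bin from 40 Mb at 0.097 (next 0.182) and of the bin from 120 Mb at 0.149 (next 0.215). Each of these 3 medians still lay above every WT tumour.

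Tn tumour 5 was highest for Tpm2 at 72.5 CPM (next 31.6), Ppie at 39.7 CPM (next 37.7) and the bin from 110 Mb at a log2 ratio of 0.31 (next 0.262). Tn tumour 3 was lowest for Rps20 at 709 CPM (next 925) and highest for the bin from 80 Mb at 0.131 (next -0.01). Tn tumour 1 was highest for C1galt1c1 at 12.9 CPM (next 11.2). Among WT tumours, tumour 6 was highest for Camta1 at 51.2 CPM (next 24.1), tumour 1 for Dpy19l4 at 66.1 CPM (next 52.5) and tumour 4 for Dph2 at 13.9 CPM (next 12.1).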

How the results depend on the processing

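No gene of chromosome 4 was called in opposite directions under any setting tried. When each tumour was left out in turn, 236 to 271 genes rose, 51 to 62 fell, the median log2 fold change was 0.18 to 0.21 and C1galt1c1 stayed between -0.85 and -0.74. The median was 0.14 with upper-quartile scaling (220 rose, 82 fell), 0.15 with a filter at a mean CPM of 1, and 0.23 without Tn tumours 4 and 6 and WT tumour 6, which stood apart in an earlier look at these data. With upper-quartile scaling the median over all genes tested was also lower, at -0.04 against 0.01. The chromosome 4 median minus that of all genes was 0.177 there and 0.176 in the main fit. It was 0.143 with the filter and 0.219 without the 3 tumours. The set of all genes tested differed too, with 19255 in the main fit, 14081 with the filter and 19600 without the 3 tumours. The number that fell was 37 at an adjusted p below 0.01 (192 rose) and 40 among the 479 genes with a mean CPM of at least 20 (206 rose). The largest step was a rise of 0.44 with windows of 40 genes in place of a fall of -0.52 with 20. Eno1, which did not pass, went from -0.07 to 0.0896 without those 3 tumours (edgeR adjusted p = 0.61). The causes of these changes were not tested.

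The replicate numbers did not pair the tumours: deviations of same-numbered tumours correlated by -0.12 to 0.16, and 0 of 6 tumours correlated best with their own number. With the number as a replicate block, 233 genes rose (227 of the 269) and 60 fell (58 of the 68), with a median of 0.19. Pax5 then had a log2 fold change of 2.13 and did not pass (edgeR adjusted p = 0.218), and Aqp3 had 2.19. Of 92 named genes of the chromosome, 75 kept their direction and side of the threshold in every setting. How far depth limits these calls was not tested.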
